A study of Mus musculus with 933 samples.

Results

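The 200 genes described here are those whose transcripts gained most between 18 and 28 h after fertilization in mouse 2-cell embryos made with cauda sperm. They were chosen from the measured values: 23467 genes were ranked by the mean log2(TPM + 1) of cauda embryos at 28 h minus that of cauda embryos at 18 h, and the 200 highest were kept. The ranking left out gene families given by the start of their symbols (Zscan4, Obox, Usp17l, Tdpoz, Pram, Hist, Rpl, Rps, Psm, Eif and Mrp), and each table lists 23845 genes in all. TPM (transcripts scaled to the same total in every library) gives a gene's share of all transcripts in a library after correction for transcript length.

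The study, named after small RNAs that sperm gain in the epididymis, sequenced RNA of 933 single embryos of strain FVB by Smart-seq2. A single sperm was injected into each egg (intracytoplasmic sperm injection, ICSI). Sources of sperm were the testis, the caput, which is the part of the epididymis entered first, and the cauda, the part that stores sperm before ejaculation. In the injection experiments RNA entered zygotes of caput sperm 3 h after ICSI, and the labels name it GFP, EpiM small RNA, EpiM miRNA or EpiM tRF (fragments of transfer RNA). The labels do not give the number of males or of clutches, so p-values measure the spread between embryos. Library names carry a date-like number, called a session here, and the labels do not say whether it marks injection, collection or another step.

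The 112 2-cell libraries came from caput sperm (19 embryos at 18 h, 11 at 24 h and 25 at 28 h) and from cauda sperm (25 at 18 h, 8 at 24 h and 24 at 28 h), with no RNA injected. Embryos of 1 stage in 1 table are called a cohort below. The 4-cell cohorts held 32 caput and 32 cauda embryos (cohort 1), 22 caput embryos with EpiM miRNA, 21 caput embryos with EpiM tRF, 23 caput and 23 cauda embryos (cohort 2), and 34 testis and 33 cauda embryos (cohort 3). There were 28 caput and 25 cauda embryos at the 8-cell stage, 29 caput and 31 cauda morulae in cohort 1, and 34 testis and 34 cauda morulae in cohort 2. The blastocyst cohorts held 35 caput and 42 cauda embryos (cohort 1), 34 caput and 39 cauda (cohort 2), 25 caput with EpiM small RNA, 26 caput with GFP and 39 cauda (cohort 3), 30 caput with EpiM miRNA, 30 caput with EpiM tRF, 32 caput and 31 cauda (cohort 4), and 28 testis and 29 cauda (cohort 5). Growth and collection notes in the labels state 28 h for every sample, although their stages differ, and the stages were used.

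A fertilized mouse egg lives at first on RNA made in the oocyte. Its own genome is switched on in a minor wave in the zygote and early 2-cell embryo and in a major wave in the late 2-cell embryo, while maternal transcripts are cleared. The major wave is known for genes of transcription, ribosome assembly and metabolism as well as for multicopy families that are silent in most adult tissues. The 200 genes hold members of these groups, together with lysosomal, glycine-degrading and metal-binding proteins.

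Of the 200 genes, 187 encode proteins, 8 are long non-coding RNAs and 5 are transcribed pseudogenes. Cauda embryos at 28 h exceeded those at 18 h by 7.22 on the log2(TPM + 1) scale for the first gene, Gm11517, and by 4.20 for the last, Zfp367. The last 4 members with gene names were Rab40c (4.22), Nme2 (4.21), Isg20l2 (4.20) and Zfp367, and the first 4 genes outside were Yif1b, Ccnjl, Nmnat1 and Tspan4 with differences of 4.20, 4.18, 4.18 and 4.18. The limit of the list therefore falls in a continuous range of values. Had these families been kept, 14 of the places would have gone to Rpl (5), Rps (4), Pram (2), Mrp (1), Obox (1) and Psm (1) genes. In the annotation 51 of the members overlap another listed gene, for example Trim43c and the non-coding 9330159M07Rik, or Gm11517 and Cbx1, and reads of such pairs cannot be told apart where counting did not use strand, which the sources used here do not give.

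Promoter windows of 250 bases before an annotated start were available from RefSeq (GRCm38.p6) for 156 members, matched by gene identifier. That start can differ from the end of the gene's listed span, so a window can lie inside the span. In all, 15 short motif spellings were searched on both strands. The letters GGATTA, the core bound by bicoid-type homeodomain proteins such as OTX2, were in 21 of the 156 windows. Over all ranked genes with a window, 5.9% held them, and 5.3% of those tested in caput embryos did. Windows were found for 78.0% of the members, below the 80% set as a minimum, so a comparison of these shares is void and they stand as a description of the windows only. Windows of 4 members with these letters are shown because their values are followed below from the 2-cell embryo to the blastocyst. The capitals mark GGATTA or its reverse complement TAATCC. The window of Cd63, a membrane protein of lysosomes and secreted vesicles, is chr10:128909095-128909344 on the plus strand. That of Prps1, which makes the phosphoribosyl precursor of nucleotides, is chrX:140456353-140456602 on the plus strand. The windows of Alppl2, an embryonic alkaline phosphatase, and Klhl11, a substrate adaptor of CUL3 ubiquitin ligases, are chr1:87089929-87090178 on the minus strand and chr11:100472783-100473032 on the minus strand. The windows of Cd63 and Alppl2 lie inside the listed spans of these genes (128896231 to 128912822 and 87086690 to 87095934).
Cd63: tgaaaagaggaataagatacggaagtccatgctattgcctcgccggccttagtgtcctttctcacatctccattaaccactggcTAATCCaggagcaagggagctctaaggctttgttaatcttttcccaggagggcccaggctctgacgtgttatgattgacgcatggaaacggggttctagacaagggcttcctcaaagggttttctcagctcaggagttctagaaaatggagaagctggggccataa
Prps1: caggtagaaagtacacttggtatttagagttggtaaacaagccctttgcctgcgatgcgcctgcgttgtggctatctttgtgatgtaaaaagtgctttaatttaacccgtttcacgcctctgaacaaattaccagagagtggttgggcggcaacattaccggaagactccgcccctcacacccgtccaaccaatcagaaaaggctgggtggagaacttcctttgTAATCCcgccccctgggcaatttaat
Alppl2: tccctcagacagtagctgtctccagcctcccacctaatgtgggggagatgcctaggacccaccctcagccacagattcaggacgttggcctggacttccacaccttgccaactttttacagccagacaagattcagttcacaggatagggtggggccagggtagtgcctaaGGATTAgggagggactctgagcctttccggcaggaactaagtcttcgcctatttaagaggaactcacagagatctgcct
Klhl11: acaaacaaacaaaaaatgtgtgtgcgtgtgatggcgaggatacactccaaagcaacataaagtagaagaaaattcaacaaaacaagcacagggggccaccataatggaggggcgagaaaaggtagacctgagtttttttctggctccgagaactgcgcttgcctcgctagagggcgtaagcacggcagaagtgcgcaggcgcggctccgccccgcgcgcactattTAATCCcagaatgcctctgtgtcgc
The match of Klhl11 and that of Prps1 lay nearest the start that follows the window, beginning 25 and 26 bases before it. The match begins 79 bases before that start in Alppl2 and 166 bases before it in Cd63.

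The 2 metallothioneins, small proteins that bind zinc and copper, are known to answer to metals through elements of the core TGCACNC or TGCGCNC, bound by the factor MTF1. They are neighbours on chromosome 8, with listed spans 5316 bases apart, and their windows are shown because Mt1 was the most abundant member at 28 h. The window of Mt1 is chr8:94178839-94179088 on the plus strand and that of Mt2 is chr8:94172368-94172617 on the plus strand. Capitals mark matches to either spelling on either strand.
Mt1: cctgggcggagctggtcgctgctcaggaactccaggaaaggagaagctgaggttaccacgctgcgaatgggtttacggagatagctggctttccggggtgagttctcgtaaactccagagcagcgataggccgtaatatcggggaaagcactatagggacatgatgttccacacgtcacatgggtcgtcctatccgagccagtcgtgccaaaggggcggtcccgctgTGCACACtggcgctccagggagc
Mt2: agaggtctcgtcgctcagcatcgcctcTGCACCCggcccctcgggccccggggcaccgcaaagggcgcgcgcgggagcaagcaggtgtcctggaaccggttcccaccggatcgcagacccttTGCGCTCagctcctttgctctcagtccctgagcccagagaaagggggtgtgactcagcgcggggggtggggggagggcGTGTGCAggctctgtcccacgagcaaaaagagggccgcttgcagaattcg
Mt1 held 1 match, to TGCACNC, 23 bases before the start that follows its window. The listed span of Mt1 begins earlier, at 94178883, so most of this window and the match lie inside that span. Mt2 held TGCACNC at 223 and 50 bases and TGCGCNC at 128 bases before its start. Among all ranked genes with a window, 10.2% held TGCACNC and 16.1% held TGCGCNC, so these letters are common.

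In each embryo the mean log2(TPM + 1) over the 200 genes gives 1 value. In caput embryos this mean was 1.73 ± 0.38 at 18 h (SD, n = 19), 3.92 ± 0.92 at 24 h (n = 11) and 6.81 ± 0.76 at 28 h (n = 25). In cauda embryos, whose 18 and 28 h values chose the genes, it was 1.87 ± 0.42 (n = 25), 4.35 ± 0.89 (n = 8) and 6.83 ± 1.29 (n = 24). No caput embryo at 28 h fell below 5.14 and none at 18 h exceeded 2.36. Cauda embryo 1 at 28 h stood apart at 1.17, inside the 18 h range, whereas the other 23 spanned 5.72 to 7.66 (7.08 ± 0.46). That library had 10510 genes at 1 TPM or more, and its transcripts of the oocyte list (55 genes typical of the oocyte, none a member) summed to 103278 TPM, the highest sum of its group. At 18 h the same sum was 75309 to 98591 TPM in cauda embryos. Without this embryo 197 of the 200 genes would still have been chosen. All 24 h embryos came from 1 session that holds no other time, so the hour and the session cannot be told apart.

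**Figure D1:**
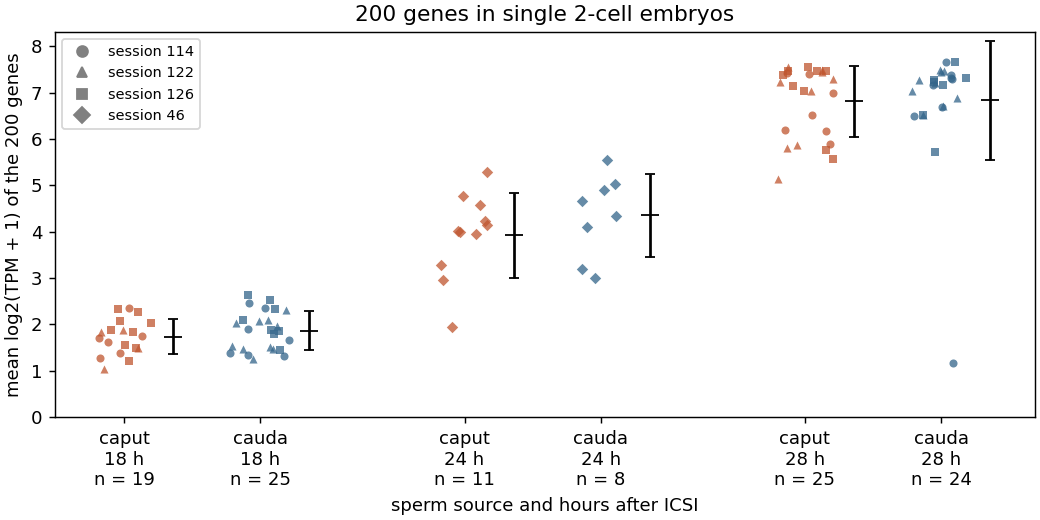
Mean log2(TPM + 1) over the 200 genes in each 2-cell embryo (points) at 18, 24 and 28 h after ICSI, for caput sperm and cauda sperm, with group means and SD (bars) and a symbol for each session. Caput embryos lie at 1.03 to 2.36 at 18 h and at 5.14 to 7.56 at 28 h, and 1 cauda embryo at 28 h lies at 1.17.

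In caput embryos they made up 0.111% of all TPM at 18 h, 0.931% at 24 h and 4.45% at 28 h, and in cauda embryos 0.130%, 1.09% and 4.99%. At 18 h the mean level of the median member was 3.02 TPM in caput embryos, 41 members lay below 1 TPM and 1 (Sardh) was listed at 0 in all 19. At 28 h the median member reached 130.6 TPM, with a lowest mean of 27.9 and a highest of 2365 TPM, and 117 members exceeded 100 TPM. TPM are shares of a library, and the amount of RNA per embryo was not measured.

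Caput embryos played no part in the choice of the genes, so the change between 18 and 28 h could be tested in them. Of the 13537 genes tested by limma, 4945 rose (36.5% of those tested) and 4252 fell (31.4%). All 200 members passed the filter on low values in this comparison and all 200 rose, with a median change of 5.00 on the log2(TPM + 1) scale, against a median of 0.04 over all genes tested. Of the 200, 68 reached 1 TPM in too few 18 h embryos to meet the filter at that hour and entered through the 28 h embryos, where they are high. For these a change was a condition of entry, so the count of 200 is a description, as are the changes given for such genes below. Over all 200 the smallest change was 3.40 (Exosc6) and the largest 8.16 (Gm11517). Every member was higher at 28 h in each of the 3 sessions. The lowest embryo at 28 h exceeded the highest at 18 h for 153 members, or 76.5%, against 4.48% of the genes tested. Ranked by the caput change, all members stood within the first 543 genes, and 165 were among the first 200. When each embryo was centred on the median of its tested genes, all 200 still rose (median 4.64), while the median of all genes moved to -0.31 and the calls to 3748 higher and 5891 lower.

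Beside these changes, the summed level of the oocyte list was 42685 to 83694 TPM at 28 h and 75077 to 99749 TPM at 18 h in caput embryos. Markers of cumulus and granulosa cells, which surround the egg (19 genes that are not members, of which 15 averaged under 1 TPM at each of these hours), summed to 17.7 to 47.9 TPM at 28 h and to 40.2 to 104 TPM at 18 h. The same sum for 21 epididymal genes, 18 of them under 1 TPM at either hour, was at most 23.4 TPM at 28 h and at most 14.5 TPM at 18 h. Sperm and spermatid genes (20, of which 13 and 14 averaged under 1 TPM) summed to 147 to 548 TPM at 28 h and to 79.2 to 260.4 TPM at 18 h. The part of these markers in the changes was not tested.

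**Figure D2:**
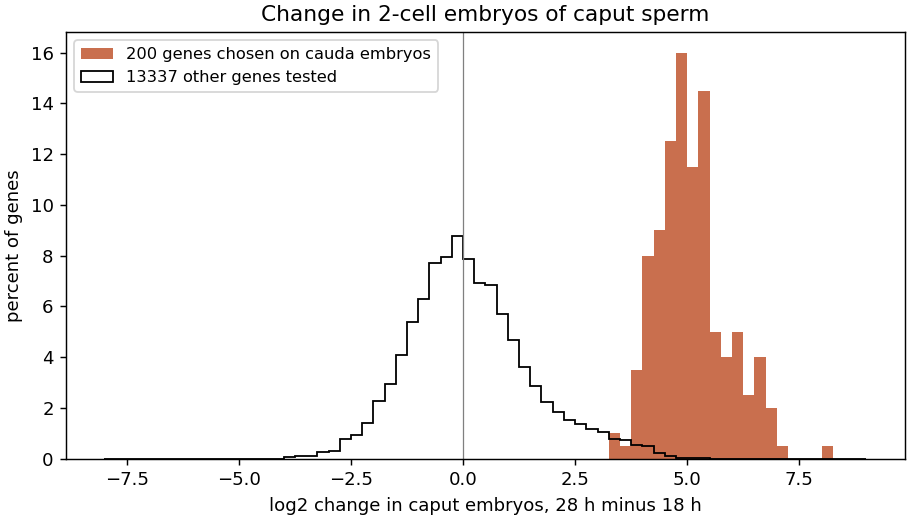
Distribution of the log2 change from 18 to 28 h in caput embryos (28 h minus 18 h, limma) for the 200 members (filled) and the other genes tested (outline), each as a percent of its genes. The members lie between 3.40 and 8.16, and the median over all 13537 genes tested is 0.04.

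The first gene, Gm11517, is a non-coding transcript that overlaps Cbx1. It had medians of 5.46, 234 and 2257 TPM at 18, 24 and 28 h, over ranges of 0 to 39.4, 21.5 to 868 and 481 to 3707 TPM in caput embryos, a change of 8.16 ± 0.37 (SE; limma, adjusted p = 8.58e-25). A group of 3 genes of the TRIM43 family, tripartite-motif proteins known from preimplantation embryos, follow near the top. Trim43c had medians of 3.89, 118 and 486 TPM at 18, 24 and 28 h, over ranges of 0 to 9.34, 8.10 to 328 and 143 to 889 TPM in caput embryos, and its change was 6.80 ± 0.27 (adjusted p = 1.57e-26). Every 28 h embryo lay above every 18 h embryo. In cauda embryos its medians were 3.42, 207 and 588 TPM at the same hours, and at 28 h the range was 275 to 984 TPM without embryo 1, in which it was 1.53 TPM. Trim43a had medians of 2.12, 194 and 492 TPM at 18, 24 and 28 h, over ranges of 0 to 23.1, 21.7 to 344 and 156 to 905 TPM (change 7.06 ± 0.28). Trim43b reached a median of 599.7 TPM at 28 h, against 8.56 TPM at 18 h (change 6.11 ± 0.21). Calcoco2, an autophagy receptor, changed by 6.62 ± 0.31. These 4 are the only members among 53 genes listed as typical of the 2-cell burst outside the dropped families, a list in which 32 of the 43 genes tested rose and 7 fell (median 1.82). The 3 TRIM43 genes are close relatives whose reads may be shared between them.

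Zscan5b, a zinc finger protein with a SCAN domain, had medians of 4.50, 93.6 and 705 TPM at 18, 24 and 28 h, over ranges of 0 to 17.6, 9.68 to 348 and 233 to 1217 TPM in caput embryos (change 6.96 ± 0.30, limma adjusted p = 3.13e-25). Its 28 h embryos all lay above its 18 h embryos. The remaining named genes at the head of the ranking differ widely in function. Vimp, selenoprotein S of the endoplasmic reticulum, changed by 6.77 ± 0.39, with medians of 582 TPM at 28 h and 3.34 TPM at 18 h. Folr1, a folate receptor, had medians of 1.93, 34.6 and 296 TPM at 18, 24 and 28 h, over ranges of 0 to 13.2, 4.66 to 119 and 55.5 to 463 TPM (change 6.74 ± 0.32). Rab20, a GTPase of vesicle traffic, changed by 6.92 ± 0.32 and reached 134 to 839.7 TPM at 28 h, against 0 to 12.6 TPM at 18 h, although it overlaps the non-coding E230013L22Rik. Stmn3, a stathmin that acts on microtubules, changed by 5.94 ± 0.46, and Pitpnb, a carrier of phosphatidylinositol, by 6.15 ± 0.29. The zinc finger gene Zfp599, Ankrd10, Btbd18, Fam109a and Bag5, a co-chaperone of HSP70, changed by 6.28, 6.68, 6.74, 6.22 and 6.56. All of these were called in caput embryos. Zfp599, with a mean log2(TPM + 1) of 0.25 in them at 18 h, met the filter through the 28 h embryos, so its call is a description. The same holds for any other of these genes among the 68 members that entered in that way.

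Several members regulate transcription. Gata1, known as the master factor of red blood cells, had medians of 0, 5.14 and 111 TPM at 18, 24 and 28 h, over ranges of 0 to 5.60, 0 to 53.4 and 5.86 to 403 TPM in caput embryos. It was listed at 0 in 16 of 19 embryos at 18 h and in none of 25 at 28 h, and its change was 6.34 ± 0.39. Gata1 met the filter through the 28 h embryos, where it is high, so its change is a description and no p is given. Nfe2, another factor known from blood cells, changed by 4.24 ± 0.42. Gabpa, the DNA-binding subunit of GA-binding protein, had medians of 2.11, 25.2 and 170.3 TPM at 18, 24 and 28 h, over ranges of 0 to 5.09, 2.13 to 58.0 and 31.2 to 286 TPM (change 5.89 ± 0.22). Rarg, a retinoic acid receptor, changed by 4.45 ± 0.29 and reached 7.42 to 109 TPM at 28 h, against 0 to 4.01 TPM at 18 h. Spic, an ETS factor known from macrophages, changed by 4.04 ± 0.27, Sp6, a relative of Sp1, by 5.47 ± 0.25, and Crxos, a homeobox gene of preimplantation embryos, by 5.28 ± 0.36. Among 69 transcription factors listed for early embryos and lineages, of which Gabpa and Rarg are members, 35 of the 56 tested rose and 11 fell, with a median of 0.89. When each embryo was centred, 29 rose and 14 fell (median 0.53).

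Parts of the basal machinery were also among the members. Med29 of Mediator changed by 5.26 ± 0.26, Tceb2 (elongin B) by 5.44 ± 0.31, Gtf3c5 of the RNA polymerase III factor TFIIIC by 6.08 ± 0.33 and Snapc2 of the complex that starts small nuclear RNA genes by 5.31 ± 0.32. In the list of RNA polymerase II and general factors 50 of 91 genes rose and 21 fell (median 0.69), or 44 and 28 after centring (median 0.33). Of chromatin proteins, Cbx3, a heterochromatin protein that binds methylated histone H3, had medians of 13.2, 147 and 347 TPM at 18, 24 and 28 h, over ranges of 4.98 to 35.7, 35.6 to 360.4 and 45.8 to 817 TPM. Kdm5b, a histone demethylase, changed by 4.83 ± 0.18 and Mta2, a subunit of the NuRD repressor complex, by 6.63 ± 0.21. Of 105 chromatin genes tested, 54 rose and 30 fell, and the list's median of 0.32 became -0.03 after centring. The splicing proteins Snrpb and Snrnp35 changed by 4.73 ± 0.35 and 5.99 ± 0.31, in a list where 41 of 105 rose and 35 fell with a median of 0.15, which became 31 and 46 with a median of -0.20 after centring. Pabpc1, which binds poly(A) tails, and Syncrip, an RNA-binding hnRNP, changed by 4.70 ± 0.25 and 5.08 ± 0.20. Of 54 hnRNP and other RNA-binding genes 35 rose and 6 fell (median 0.59), or 23 and 10 after centring (median 0.23).

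Nucleolar genes formed 1 of the 2 lists with most members, 10. The nucleolus is the site where ribosomal RNA is made and ribosomes are assembled. In the full list of 125 such genes 83 of the 121 tested rose and 12 fell, with a median of 1.25. After centring 75 rose and 22 fell (median 0.90). Ubtf, the factor that opens ribosomal genes for RNA polymerase I, had medians of 2.05, 15.2 and 135 TPM at 18, 24 and 28 h, over ranges of 0 to 5.20, 0 to 56.3 and 27.2 to 209 TPM in caput embryos (change 5.18 ± 0.24, limma adjusted p = 1.31e-24). Nop2, a methyltransferase of 28S ribosomal RNA, had medians of 3.70, 46.4 and 292 TPM at 18, 24 and 28 h, over ranges of 0 to 9.18, 0 to 97.4 and 57.8 to 348 TPM (change 5.78 ± 0.27). Nop16, needed for the large subunit, had medians of 1.12, 12.9 and 137 TPM at 18, 24 and 28 h, over ranges of 0 to 6.17, 0 to 60.6 and 21.7 to 264 TPM (change 5.71 ± 0.28, adjusted p = 4.60e-23). In each of these 3 genes the 18 h range ended below the 28 h range. Bop1 and Mak16, of large-subunit assembly, changed by 5.14 ± 0.34 and 5.13 ± 0.26. Tbl3 and Nol11, of small-subunit processing, changed by 4.92 ± 0.42 and 5.20 ± 0.27. Rrs1 changed by 4.04 ± 0.39, Znhit3, of small nucleolar RNP assembly, by 4.88 ± 0.28, and Polr1c, a subunit shared by RNA polymerases I and III, by 3.78 ± 0.21. Outside that list, Cd3eap, a subunit of RNA polymerase I, changed by 4.00 ± 0.34, Gltscr2, a large-subunit assembly factor, by 4.67 ± 0.27, and Isg20l2, an exonuclease of ribosomal RNA processing, by 4.69 ± 0.28. Zfp622, a late factor of large-subunit maturation, changed by 5.47 ± 0.27. Exosc6, a core subunit of the RNA exosome, had the smallest change of all members, 3.40 ± 0.31, with medians of 4.30, 7.45 and 69.3 TPM at 18, 24 and 28 h, over ranges of 0.480 to 11.9, 1.94 to 12.3 and 11.4 to 262 TPM.

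Nucleotide synthesis gave 6 members. Prps1 supplies the phosphoribosyl group of all nucleotides and was already present at 18 h. It had medians of 54.5, 453 and 1581 TPM at 18, 24 and 28 h, over ranges of 14.4 to 103, 79.5 to 971 and 1004 to 3699.7 TPM in caput embryos (change 5.00 ± 0.17, limma adjusted p = 9.09e-29). Impdh2, which commits purines to guanine nucleotides, had medians of 8.90, 51.9 and 317 TPM at 18, 24 and 28 h, over ranges of 0 to 22.1, 13.3 to 202 and 74.6 to 729 TPM (change 5.27 ± 0.30, adjusted p = 4.74e-21). Its sister enzyme Impdh1 changed by 5.30 ± 0.31. Ppat, the first committed enzyme of purine synthesis, had medians of 5.44, 36.1 and 200.3 TPM at 18, 24 and 28 h, over ranges of 0 to 18.5, 16.3 to 139 and 75.9 to 302 TPM (change 5.03 ± 0.24). Aprt, which salvages adenine, changed by 4.20 ± 0.29, and Nme2, which phosphorylates nucleoside diphosphates, by 4.23 ± 0.23. In the nucleotide and one-carbon list 29 of 52 genes tested rose and 13 fell (median 0.75), so the 6 members stand beside 13 relatives that changed the opposite way. After centring 23 of the list rose and 18 fell (median 0.40). Pgd, of the pentose phosphate pathway, changed by 5.06 ± 0.23, in a glycolysis and pyruvate list with 13 higher and 11 lower of 29 (median 0.07), or 12 and 13 after centring (median -0.28).

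A further 10 members act in lysosomes, the compartment where proteins and lipids are digested. This list of 56 genes, like those of glycine cleavage, metallothioneins and Rab proteins below, was made after the members were seen, so its count is a description. Of 51 tested in caput embryos 26 rose and 12 fell (median 0.68), or 22 and 17 after centring (median 0.33). Cd63 had medians of 3.08, 93.3 and 362 TPM at 18, 24 and 28 h, over ranges of 0 to 16.2, 12.5 to 282 and 78.2 to 722 TPM (change 6.51 ± 0.35, limma adjusted p = 8.60e-22). Among proteases, Ctsc had medians of 2.47, 10.5 and 177 TPM at 18, 24 and 28 h, over ranges of 0 to 8.65, 1.98 to 29.2 and 21.5 to 334 TPM (change 5.45 ± 0.31). Ctsz had medians of 0, 7.30 and 48.2 TPM at 18, 24 and 28 h, over ranges of 0 to 5.36, 0 to 32.6 and 3.35 to 129.6 TPM (change 4.45 ± 0.29). The 18 and 28 h ranges of Ctsc did not overlap, whereas those of Ctsz did. Ctsa and Ctsb changed by 5.23 ± 0.25 and 4.29 ± 0.24. Gm2a, an activator protein of ganglioside breakdown, changed by 5.00 ± 0.26. Tcirg1, a subunit of the proton pump that acidifies lysosomes, changed by 4.57 ± 0.28, and the membrane transporters Spns1 and Pqlc2 by 5.79 ± 0.25 and 4.13 ± 0.30.

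Glycine cleavage and sarcosine use gave 3 members. Gldc and Gcsh belong to the mitochondrial glycine cleavage system, which feeds 1-carbon units into folate metabolism, and Sardh forms glycine from sarcosine. Gcsh had medians of 37.0, 222 and 964 TPM at 18, 24 and 28 h, over ranges of 2.76 to 88.3, 44 to 508 and 324 to 1382 TPM in caput embryos (change 4.75 ± 0.25). Gldc had medians of 1.14, 9.00 and 35.0 TPM at 18, 24 and 28 h, over ranges of 0 to 6.45, 0 to 26.6 and 17.0 to 92.7 TPM (change 4.29 ± 0.26). Sardh was listed at 0 in all 18 h caput embryos, and had a median of 30.5 TPM (range 4.87 to 60.9) at 28 h. In the list of 8 such genes 6 of 7 tested rose and 1 fell, or 4 and 1 after centring.

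Mt1 was the member with the highest mean at 28 h. It had medians of 49.1, 481 and 2497 TPM at 18, 24 and 28 h, over ranges of 2.60 to 118, 78.5 to 1454 and 512 to 3655 TPM in caput embryos (change 5.74 ± 0.29, limma adjusted p = 1.35e-22), and every 28 h embryo lay above the 18 h range. Mt2 had medians of 37.1, 335 and 1223 TPM at 18, 24 and 28 h, over ranges of 4.94 to 98.8, 88.4 to 788 and 454 to 2214 TPM (change 5.13 ± 0.25). Of the 5 genes of the metallothionein and metal response list that were tested, 3 rose and 1 fell. The 3 Rab GTPases among the members, Rab20, Rab39 and Rab40c, come from a family of which 19 of 52 tested genes rose and 18 fell (median 0.05), or 15 and 23 after centring (median -0.31).

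Protein folding and import contributed Cct6a, a subunit of the cytosolic chaperonin, and Tomm20, Tomm5 and Timm10, which bring proteins into mitochondria. Their changes in caput embryos were 5.04 ± 0.29, 4.42 ± 0.20, 4.84 ± 0.50 and 5.45 ± 0.43. Tomm20 had medians of 3.01, 21.3 and 84.2 TPM at 18, 24 and 28 h, over ranges of 0.250 to 9.13, 8.58 to 61.8 and 23.5 to 132 TPM. In the list of chaperones 42 of 80 rose and 19 fell (median 0.40), or 32 and 31 after centring (median 0.05). None of the 77 oxidative phosphorylation subunits was a member, and 30 of them rose and 26 fell (25 and 28 after centring). The list of ubiquitin and its relatives included Cul3, the scaffold of a ubiquitin ligase, and Sumo2, a small modifier of proteins. Cul3 changed by 5.72 ± 0.23 and Sumo2 by 4.13 ± 0.28, in a list with 26 higher and 21 lower of 62 (median -0.06), which became 17 higher and 31 lower after centring (median -0.41). The nuclear import receptors Kpna1 and Tnpo3 changed by 5.30 ± 0.23 and 5.42 ± 0.31 in a list with 28 higher and 16 lower of 56. After centring that list had 24 higher and 19 lower. Elp6, of the Elongator complex that modifies transfer RNA, changed by 4.50 ± 0.27 in a list with 25 higher and 20 lower of 55, or 20 higher and 24 lower after centring.

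Genes of the cell surface and of signalling included Epcam, an epithelial adhesion molecule, Cldn6, a tight junction protein, Alppl2, and the growth factors Fgf4 and Pdgfa. Alppl2 had medians of 24.4, 153 and 1221 TPM at 18, 24 and 28 h, over ranges of 10.2 to 56.5, 32.5 to 289 and 283 to 2569 TPM in caput embryos (change 5.50 ± 0.24). Cldn6 had medians of 4.66, 70.3 and 154 TPM at 18, 24 and 28 h, over ranges of 0 to 30.3, 14.3 to 161 and 79.8 to 269 TPM (change 5.15 ± 0.34) and is the only member among 24 trophectoderm genes, of which 2 of 15 tested rose and 4 fell. Fgf4, a growth factor of the inner cell mass, had medians of 0, 3.59 and 34.7 TPM at 18, 24 and 28 h, over ranges of 0 to 0.900, 0 to 12.4 and 0 to 80.5 TPM (change 4.43 ± 0.36). It and Spic are members among 28 genes of the inner cell mass and primitive endoderm, of which 9 of 21 tested rose and 5 fell (median 0.35, and -0.01 after centring). Amhr2, a receptor known from granulosa cells, was the only member in the list of cumulus and granulosa cells. It had medians of 0, 3.05 and 147 TPM at 18, 24 and 28 h, over ranges of 0 to 1.66, 0 to 29.6 and 19.1 to 216 TPM, while the other cumulus and granulosa genes had the low sums given above. In lists without members, 26 of 66 tested genes of the cell cycle and DNA replication rose and 25 fell (median -0.11, with 18 and 34 after centring, median -0.47), and 11 of 56 cytoskeletal genes rose and 23 fell (median -0.17, with 7 and 32 after centring).

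**Figure D3:**
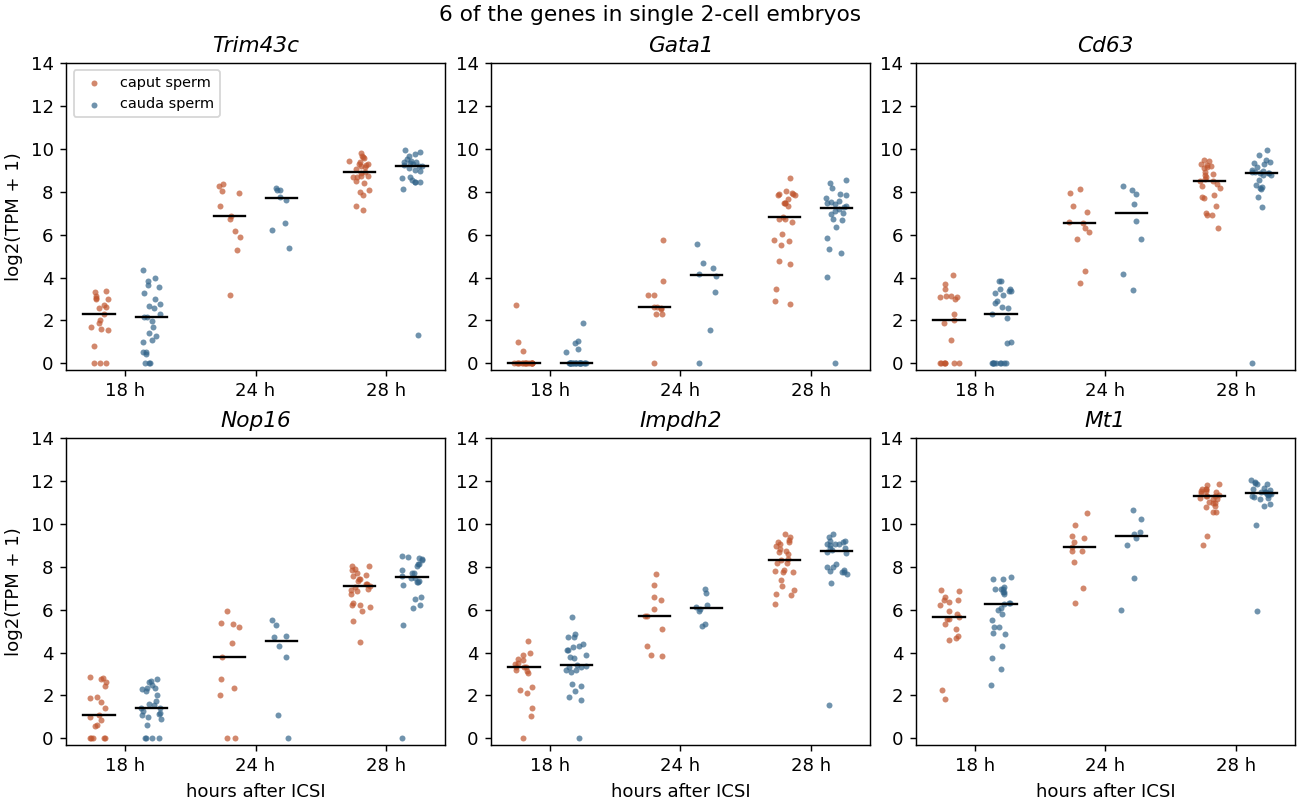
log2(TPM + 1) per embryo (points, group medians as lines) of Trim43c, Gata1, Cd63, Nop16, Impdh2 and Mt1 at 18, 24 and 28 h, with caput embryos left of cauda embryos at each hour. All 6 genes lie higher at 28 h than at 18 h in caput embryos, with the 24 h medians between, and the low cauda point at 28 h is embryo 1.

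The 24 h embryos show how far each gene had come. Taking the difference of mean log2(TPM + 1) between 18 and 28 h as 100%, the median member had reached 45.2% of it at 24 h in caput embryos (quartiles 30.9% and 55.6%) and 54.1% in cauda embryos (39.5% and 62.5%). Trim43b (77.0%), Cldn6 (76.2%), Trim43a (76.2%), Cbx3 (74.9%), Pabpc1 (73.8%) and Nup62cl (71.7%) were furthest along in caput embryos, followed by the snoRNA host gene Snhg3 (71.1%) and Zfp622 (70.0%). At the other end, Timm10 stood at -13.1%, Uqcc3 at -2.92%, Commd5 at -1.72%, Usp22, a histone deubiquitinase, at 1.25%, Pld6 at 1.57%, Fam109a at 2.32%, Tor1b at 3.43% and Rrs1 at 5.37%. In cauda embryos Timm10 stood at -9.57% and Uqcc3 at 1.32%. By group, the caput medians were 72.7% for the 4 burst genes, 61.4% for the metallothioneins, 48.5% for nucleotide synthesis, 41.3% for the nucleolus and 37.7% for lysosomal members. These percentages are descriptive, since 24 h came from another session.

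Caput and cauda embryos of 24 h were tested against each other. Caput embryos had the lower mean in 159 members and the higher in 41, with a median change of -0.46, against -0.04 over all 13400 genes tested. Of all genes tested 44.4% were higher in caput embryos. Members can vary together within an embryo, so the signs are not independent. None of the 200 passed limma's test, as none of all genes did (0.0%). At an unadjusted p under 0.05 there were 16 members and 554 genes in all. The smallest p among named members was that of Plekhf2, a protein of endosomes, with 10.6 ± 8.39 TPM in caput embryos (SD, n = 11) and 30.7 ± 18.7 TPM in cauda embryos (n = 8), a change of -1.51 ± 0.39 that did not pass (limma adjusted p = 1). At 18 and at 28 h the cauda embryos are those that chose the genes, so the differences were not tested. The median of caput minus cauda over the members was -0.13 at 18 h and -0.01 at 28 h, with 64 and 97 members higher in caput embryos. The 28 h values include cauda embryo 1, whose mean log2(TPM + 1) over the members was 1.17. The cauda mean at 28 h was 6.83 with it and 7.08 without it (n = 23), against 6.81 in caput embryos. The 28 h median and count therefore depend on this 1 library.

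Along development with cauda sperm (first cohort of each stage, normalised in separate tables, so without tests), the genes kept a large share of the transcripts after the 2-cell stage. They made up 4.99% of all TPM at 28 h, 9.40% in 4-cell embryos, 9.21% in 8-cell embryos, 7.97% in morulae and 5.28% in blastocysts. This total came to rest on fewer genes: the 10 highest members held 31.5% of the members' TPM at 28 h, 36.4% at the 4-cell stage and 54.7% in blastocysts. Of the 200, 82 had their highest mean at 28 h, 64 at the 4-cell stage, 27 at the 8-cell stage, 15 in morulae and 12 in blastocysts. Among 10974 genes tested in caput embryos and reaching 5 TPM at some stage, the corresponding shares were 42.5%, 14.8%, 12.4%, 8.88% and 21.4%, against 41%, 32.0%, 13.5%, 7.50% and 6.00% of the members. The median ratio to the 28 h level was 1.19 at the 4-cell stage, 0.975 at the 8-cell stage, 0.632 in morulae and 0.379 in blastocysts. In blastocysts 29 members stood above 2 times their 28 h level and 45 below 0.1 times.

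The members parted in these later stages. Lysosomal proteases and a mitochondrial import protein were among those furthest above their 28 h level in 4-cell embryos: Ctsz by a ratio of 15.3, Tomm5 by 15.2, Timd2 by 8.82, the membrane transporter Slc4a11 by 8.66 and Ctsc by 8.31. Ctsz averaged 55.8 ± 42.7 TPM at 28 h, 853 ± 208 in 4-cell embryos, 822 ± 223 in 8-cell embryos, 319 ± 92.8 in morulae and 145 ± 128 in blastocysts (mean ± SD of 24, 32, 25, 31 and 42 embryos, as in the values that follow). Others were brief, given here for members with gene names. Pld6, an enzyme of the mitochondrial surface known from the piRNA pathway, stood at 0.0365 of its 28 h level in 4-cell embryos, AA543401 at 0.0503, the protease Mmp19 at 0.0509, Klhl11 at 0.0975 and D1Pas1, a DEAD-box helicase, at 0.107. Klhl11 averaged 266 ± 99.3 TPM at 28 h, 25.9 ± 13.4 in 4-cell embryos, 60.0 ± 26.5 in 8-cell embryos, 11.1 ± 5.80 in morulae and 14.9 ± 6.86 in blastocysts.

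In blastocysts high ratios among members with gene names belonged to Cd63 (10.1), Calcoco2 (8.46), Renbp (8.41), an enzyme of sialic acid metabolism, Gm2a (8.01), Epcam (6.25) and Tmem208 (5.24). Cd63 averaged 468 ± 216 TPM at 28 h, 3134 ± 443 in 4-cell embryos, 2795 ± 686 in 8-cell embryos, 4149.8 ± 747 in morulae and 4745 ± 975 in blastocysts. The lowest among members with gene names belonged to AA543401 (0.000982), Sardh (0.00155), Fam43b (0.00404), Tnfaip8l2 (0.00514) and Zscan5b (0.00678). Zscan5b averaged 751 ± 309 TPM at 28 h, 376 ± 118 in 4-cell embryos, 147 ± 90.3 in 8-cell embryos, 27.3 ± 25.8 in morulae and 5.10 ± 5.33 in blastocysts. Of the abundant members, Prps1 averaged 2294 ± 815 TPM at 28 h, 2986 ± 551 in 4-cell embryos, 2267 ± 815 in 8-cell embryos, 1226 ± 536 in morulae and 1061 ± 351 in blastocysts. Mt1 averaged 2731 ± 925 TPM at 28 h, 4233 ± 699.6 in 4-cell embryos, 5658 ± 1115 in 8-cell embryos, 6709 ± 2001 in morulae and 5493 ± 2068 in blastocysts, and Crxos 1272 ± 775 TPM at 28 h, 4026 ± 649 in 4-cell embryos, 3710.0 ± 1037 in 8-cell embryos, 6605 ± 1891 in morulae and 5512 ± 1809.5 in blastocysts. Alppl2 averaged 1435 ± 619.6 TPM at 28 h, 4716 ± 882 in 4-cell embryos, 5881 ± 1611 in 8-cell embryos, 6466 ± 2065 in morulae and 1689 ± 1124 in blastocysts. Alppl2, Gm11517 and Mt1 were the 3 highest members in 4-cell and 8-cell embryos, Mt1, Crxos and Alppl2 in morulae, and Crxos, Mt1 and Cd63 in blastocysts. Trim43c peaked later than 28 h, with 565 ± 228 TPM at 28 h, 2006 ± 433 in 4-cell embryos, 1664 ± 509.9 in 8-cell embryos, 661 ± 300.4 in morulae and 104 ± 83.0 in blastocysts.

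**Figure D4:**
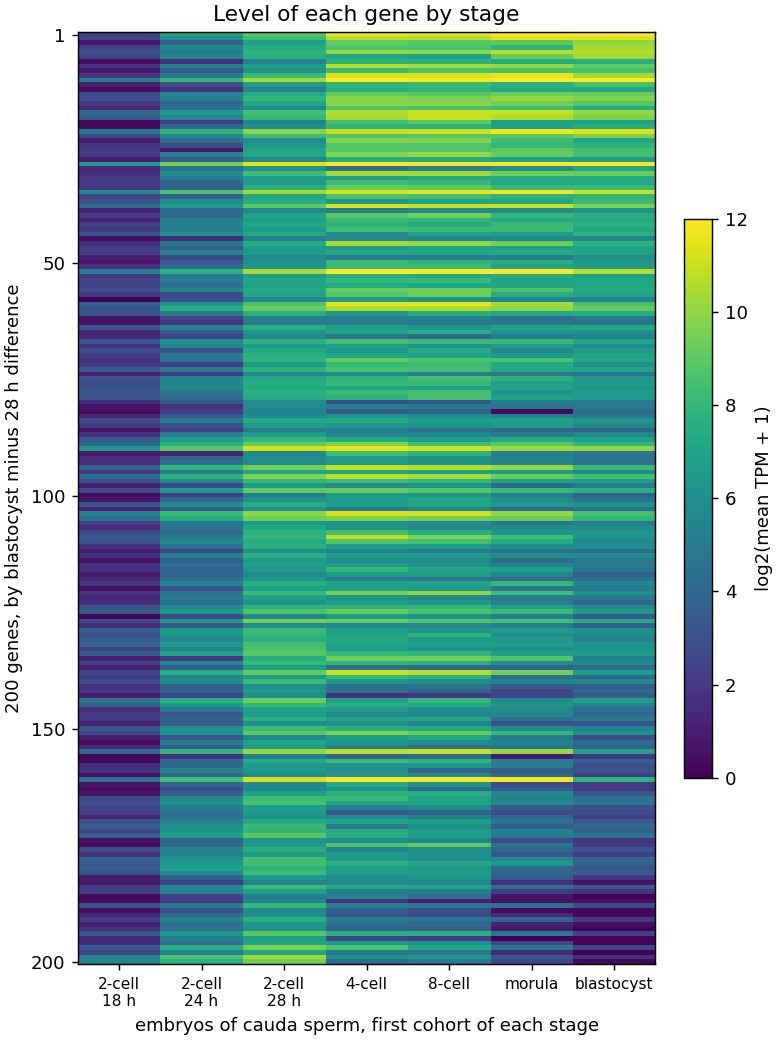
The log2 of mean TPM + 1 of each member (rows) in cauda embryos at 18, 24 and 28 h and in the first 4-cell, 8-cell, morula and blastocyst cohorts (columns), ordered by the difference of blastocysts minus 28 h. The rows share a low level at 18 h and part after the 2-cell stage, with 56 members above and 144 below their 28 h mean TPM in blastocysts.

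The members were shorter than the genes tested. Their median span in the genome was 10.8 kb, against 23.6 kb for the genes tested in caput embryos, and their median transcript had 2040 bases, against 2734. Over all 23467 ranked genes these medians were 15.8 kb and 2229 bases. The members had a median of 6 exons, against 9 in the genes tested and 6 in all ranked genes, and 33 of 195 with a transcript sequence (16.9%) had at most 2 exons, against 8.0%. The GC content of the transcript had a median of 52.8%, against 49.8%. These are medians over genes with no test. In all, 10 pairs of members lie within 50 kb of each other, among them Mt2 and Mt1, Tnfrsf12a and Cldn6, Chka and Tcirg1, Rilpl2 and Snrnp35, Eci1 and Pgp, and Rarg and Mfsd5.

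From the 4-cell stage on, few members passed a test between sperm sources. In cohort 1 caput minus cauda gave 4 members higher and none lower, where 0.983% of 11597 genes tested were called higher and 0.138% lower. Exosc6 averaged 88.9 ± 28.2 TPM in caput embryos (SD, n = 32) and 49.4 ± 25.9 TPM in cauda embryos (n = 32). It ranged over 30.1 to 138 TPM in caput embryos (median 88.1) and over 8.67 to 105 TPM in cauda embryos (median 44.6), and its change was 0.97 ± 0.15 (limma adjusted p = 8.58e-06), with caput higher in all 4 sessions. The other changes were smaller, with Aprt higher by 0.25 ± 0.07 (adjusted p = 0.0345) and Gcsh by 0.17 ± 0.05 (adjusted p = 0.0293). Aprt averaged 1645 ± 235 TPM in caput embryos (SD, n = 32) and 1398 ± 295 TPM in cauda embryos (n = 32). Centring ended the calls of Aprt and Gcsh. In cohort 2 caput minus cauda gave 1 member higher and none lower (0.556% of 11511 genes higher and 0.0174% lower). It was again Exosc6, with 80.9 ± 31.0 TPM in caput embryos (SD, n = 23) and 48.9 ± 30.2 TPM in cauda embryos (n = 23) and a change of 0.82 ± 0.21 (adjusted p = 0.0438), higher in 3 of 4 sessions. This call was lost with a pseudocount of 0.1, without the filter or after centring.

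The same caput embryos of cohort 2 served as controls for the injected ones, so the comparisons share samples. With EpiM miRNA 3 members were higher and 3 lower than in caput embryos, where 0.18% of 11673 genes were higher and 1.08% lower. Exosc6 averaged 47.4 ± 26.9 TPM in miRNA-injected embryos (SD, n = 22) and 80.9 ± 31.0 TPM in caput embryos (n = 23), a change of -0.93 ± 0.21 (limma adjusted p = 0.00699), lower in each of 4 sessions. Zfp622 averaged 159.7 ± 73.8 TPM in miRNA-injected embryos (SD, n = 22) and 239.9 ± 62.3 TPM in caput embryos (n = 23), a change of -0.74 ± 0.17 (adjusted p = 0.00399). Mfsd5, a membrane protein of the major facilitator family, averaged 192 ± 65.1 TPM in miRNA-injected embryos (SD, n = 22) and 275 ± 77.8 TPM in caput embryos (n = 23), a change of -0.57 ± 0.13. The ranges of the groups overlapped for all 3. Of the higher genes, Rnf11, a RING finger protein, changed by 0.46 ± 0.12, Cbx3 by 0.38 ± 0.09 and Pitpnb by 0.26 ± 0.07. After centring 4 members were higher and 3 lower, and over all genes 50 were higher and 104 lower, against 21 and 126 without it. With EpiM tRF no member passed (0.00861% of 11608 genes were higher and 0.0% lower, and 20 members had an unadjusted p under 0.05). Pitpnb came nearest, with 599.9 ± 99.1 TPM in tRF-injected embryos (SD, n = 21) and 492 ± 76.0 TPM in caput embryos (n = 23), without passing (adjusted p = 0.0853).

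No member passed limma's test between testis and cauda embryos of 4-cell cohort 3 (0.00872% of 11471 genes were called higher and 0.00872% lower, and 19 members had an unadjusted p under 0.05). Mt2 came nearest, with 2282 ± 504 TPM in testis embryos (SD, n = 34) and 2726 ± 559 TPM in cauda embryos (n = 33), without passing (adjusted p = 0.409). At the 8-cell stage caput minus cauda gave no call among the members or among all 11774 genes (0.0%), with 8 members at an unadjusted p under 0.05. Klrg2 had the smallest p, with 92.0 ± 51.1 TPM in caput embryos (SD, n = 28) and 76.6 ± 36.7 TPM in cauda embryos (n = 25), without passing (limma adjusted p = 0.896). In this cohort 1 cauda embryo (mean log2(TPM + 1) over the members 3.75, against 6.93 to 7.46 in the other 24) and 2 caput embryos (4.77 and 5.10) stood apart. Leaving out these 3, a choice made after the values were seen, gave no call either.

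In morulae of cohort 1 caput minus cauda gave 1 member higher and none lower of 194 tested (0.79% of 11519 genes were higher and 0.0695% lower). Exosc6 averaged 75.5 ± 25.7 TPM in caput morulae (SD, n = 29) and 52.8 ± 35.8 TPM in cauda morulae (n = 31), a change of 0.65 ± 0.16 (limma adjusted p = 0.0264) that no longer passed after centring. It ranged over 35.4 to 129 TPM in caput morulae (median 76.4) and over 14.3 to 189 TPM in cauda morulae (median 41.9), and caput morulae were higher in all 4 sessions.

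Testis morulae of cohort 2 gave the most calls among the members. Of 195 tested, 13 were higher than in cauda morulae and none was lower, where 1.13% of 11790 genes were higher and 0.45% lower. The median change of the members was 0.21, against 0.04 over all genes. The 13 were Trim43b, Trim43c, Gata1, Spic, Amhr2, Nup62cl, Impdh2, Cdk2ap1, Gltscr2, Hipk1, Rab39, Zc3hc1 and Zfp599. Gata1 averaged 67.0 ± 40.8 TPM in testis morulae (SD, n = 34) and 35.5 ± 19.0 TPM in cauda morulae (n = 34), a change of 0.96 ± 0.24 (limma adjusted p = 0.0293). Nup62cl, a relative of a nuclear pore protein, averaged 18.4 ± 25.2 TPM in testis morulae (SD, n = 34) and 6.22 ± 6.02 TPM in cauda morulae (n = 34), a change of 1.19 ± 0.33 (adjusted p = 0.0405). It was listed at 0 in some embryos of both groups. Spic changed by 0.75 ± 0.21 and Amhr2 by 0.75 ± 0.19. Trim43c ranged over 254 to 2166 TPM in testis morulae (median 692) and over 91.4 to 995 TPM in cauda morulae (median 494), a change of 0.65 ± 0.17. The ranges overlapped for each gene named with values, and each of the 13 was higher in testis morulae in all 4 sessions.

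The number of calls moved with 1 library and with the settings. Cauda morula 18 of cohort 2 had 4864 genes at 1 TPM or more, against 10051 to 11186 in the other 33 cauda morulae, and a mean over the members of 4.10, against 6.01 to 6.61. Leaving it out, which was decided after its values were seen, gave 28 members higher and 3 lower. The 13 members remained among these 31, while over all genes 2.44% were called higher and 2.3% lower (4.74% of 11787 in all). Gata1 then changed by 0.80 ± 0.19 (limma adjusted p = 0.00961). With all embryos, 3 members passed with a pseudocount of 0.1 or without the filter, 7 without the session as a term, and 7 higher with 1 lower after centring. Centring moved the calls over all genes to 76 higher and 99 lower, against 133 and 53 without it, and their median to -0.06.

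In blastocysts of cohort 1 caput minus cauda gave 3 members higher and none lower of 190 tested (1.39% of 12200 genes were higher and 0.73% lower). Exosc6 averaged 27.0 ± 18.3 TPM in caput blastocysts (SD, n = 35) and 16.2 ± 8.87 TPM in cauda blastocysts (n = 42), a change of 0.76 ± 0.19 (limma adjusted p = 0.025), higher in all 6 sessions with both groups. Rab40c, a GTPase that recruits a ubiquitin ligase, averaged 19.2 ± 8.26 TPM in caput blastocysts (SD, n = 35) and 12.0 ± 5.14 TPM in cauda blastocysts (n = 42), a change of 0.71 ± 0.15 (adjusted p = 0.00707). Scd1, which makes monounsaturated fatty acids, averaged 120.4 ± 49.6 TPM in caput blastocysts (SD, n = 35) and 77.7 ± 32.1 TPM in cauda blastocysts (n = 42), a change of 0.66 ± 0.16 (adjusted p = 0.0223). Without the session as a term 1 of the 3 passed, and after centring 5 members were higher and 2 lower. Over all genes centring gave 231 higher and 328 lower, against 170 and 89 without it. In cohort 2 no member passed (0.28% of 12154 genes were higher and 0.0% lower, and 27 members had an unadjusted p under 0.05). Vhl, a substrate receptor of a ubiquitin ligase, had the smallest p, with 88.7 ± 32.8 TPM in caput blastocysts (SD, n = 34) and 66.8 ± 24.3 TPM in cauda blastocysts (n = 39), without passing (adjusted p = 0.0682). There, Exosc6 averaged 59.6 ± 22.4 TPM in caput blastocysts (SD, n = 34) and 45.9 ± 19.4 TPM in cauda blastocysts (n = 39), a change of 0.23 ± 0.14 that did not pass (adjusted p = 0.452). In that cohort centring moved the median of all genes to -0.06, against 0.13 without it.

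In cohort 3, GFP-injected caput blastocysts exceeded cauda blastocysts in 1 member and were lower in none of 190 (0.421% of 11648 genes were higher and 0.0343% lower). Tmem208, of the endoplasmic reticulum, averaged 221 ± 92.6 TPM in GFP-injected blastocysts (SD, n = 26) and 159 ± 58.1 TPM in cauda blastocysts (n = 39), a change of 0.52 ± 0.12 (limma adjusted p = 0.0228) that was lost without the session as a term or after centring, which gave 58 genes higher and 29 lower in all, against 49 and 4. In this cohort the title and the description of 8 cauda libraries give different session numbers, and libraries of both numbers were treated as 1 session. Exosc6 averaged 76.7 ± 31.5 TPM in GFP-injected blastocysts (SD, n = 26) and 54.3 ± 27.4 TPM in cauda blastocysts (n = 39) and did not pass (change 0.59 ± 0.17, adjusted p = 0.0817). The same GFP-injected blastocysts were the controls for EpiM small RNA. No member passed in that comparison (0.0% of 11384 genes were higher and 0.466% lower, and 4 members had an unadjusted p under 0.05). Exosc6 came nearest, with 48.2 ± 27.7 TPM in EpiM-injected blastocysts (SD, n = 25) and 76.7 ± 31.5 TPM in GFP-injected blastocysts (n = 26), a change of -0.61 ± 0.20 (adjusted p = 0.251).

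Cohort 4 held both a sperm comparison and injections with the same caput blastocysts as controls. Caput minus cauda gave 5 members higher and none lower of 190 (1.8% of 12098 genes were higher and 0.0331% lower). Zfp622 averaged 52.9 ± 17.3 TPM in caput blastocysts (SD, n = 32) and 28.5 ± 22.6 TPM in cauda blastocysts (n = 31), a change of 1.15 ± 0.19 (limma adjusted p = 2.00e-05). It ranged over 16.1 to 88.2 TPM in caput blastocysts (median 50.3) and over 5.13 to 78.0 TPM in cauda blastocysts (median 18.6), and 31 of 32 caput blastocysts lay above the cauda median. Exosc6 averaged 42.1 ± 26.8 TPM in caput blastocysts (SD, n = 32) and 27.4 ± 28.1 TPM in cauda blastocysts (n = 31), a change of 0.97 ± 0.26 (adjusted p = 0.0226), higher in 5 of 6 sessions. The others were 2410016O06Rik (0.94 ± 0.20), D030056L22Rik (0.61 ± 0.16) and B4galt3, a galactosyltransferase of glycoproteins (0.39 ± 0.12, adjusted p = 0.0499). With a pseudocount of 0.1 there were 3 calls, without the session as a term 2, and after centring 2 higher and 1 lower.

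With EpiM miRNA 6 of 191 members were lower than in caput blastocysts and none was higher, where 3.02% of 12113 genes were lower and 0.033% higher, so the members' share was near that of all genes. Zfp622 averaged 28.3 ± 23.1 TPM in miRNA-injected blastocysts (SD, n = 30) and 52.9 ± 17.3 TPM in caput blastocysts (n = 32), a change of -1.22 ± 0.19 (limma adjusted p = 1.31e-06). Exosc6 averaged 20.3 ± 19.5 TPM in miRNA-injected blastocysts (SD, n = 30) and 42.1 ± 26.8 TPM in caput blastocysts (n = 32), a change of -1.37 ± 0.27 (adjusted p = 1.53e-04). Both were lower in 5 of 6 sessions, and the ranges of the groups overlapped. Mfsd5 changed by -0.70 ± 0.20 (adjusted p = 0.0248), 2410016O06Rik by -1.12 ± 0.20, D030056L22Rik by -0.93 ± 0.16 and BC003965 by -0.32 ± 0.09. With EpiM tRF no member passed (0.0% of 12106 genes in either direction, and 18 members had an unadjusted p under 0.05). Exosc6 changed by -0.24 ± 0.26 and Zfp622 by -0.05 ± 0.19 there (adjusted p = 0.927 and 0.978), and the smallest p was that of Cd3eap (change -0.39 ± 0.12, adjusted p = 0.605). Whether the injected RNAs differ from each other was not tested. In cohort 5 testis minus cauda gave no call (0.0% of 12062 genes, and 5 members had an unadjusted p under 0.05), with the smallest p for Gnl1, a GTP-binding protein (change -0.50 ± 0.15, adjusted p = 0.993).

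Exosc6 and Zfp622 were set side by side after their values were seen. Exosc6 was higher in caput than in cauda embryos on the log2 scale in each of the 7 comparisons of uninjected embryos from the 4-cell stage to the blastocyst, by 0.97 and 0.82 in the 4-cell cohorts, 0.94 at the 8-cell stage, 0.65 in morulae and 0.76, 0.23 and 0.97 in blastocyst cohorts 1, 2 and 4, and passed the test in 5 of them. After centring it stayed higher in all 7 and passed in 4-cell cohort 1 and blastocyst cohort 1. In embryos of testis sperm its change against cauda was -0.03 in 4-cell embryos, 0.02 in morulae and -0.24 in blastocysts, without passing. In 2-cell embryos of 24 h caput minus cauda was -0.04 ± 0.45. Zfp622 passed in the cauda comparison of blastocyst cohort 4 alone, and its caput minus cauda change was 0.11 and 0.31 in the 4-cell cohorts, 0.12 at the 8-cell stage, 0.19 in morulae, and 0.44 and -0.01 in blastocyst cohorts 1 and 2.

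**Figure D5:**
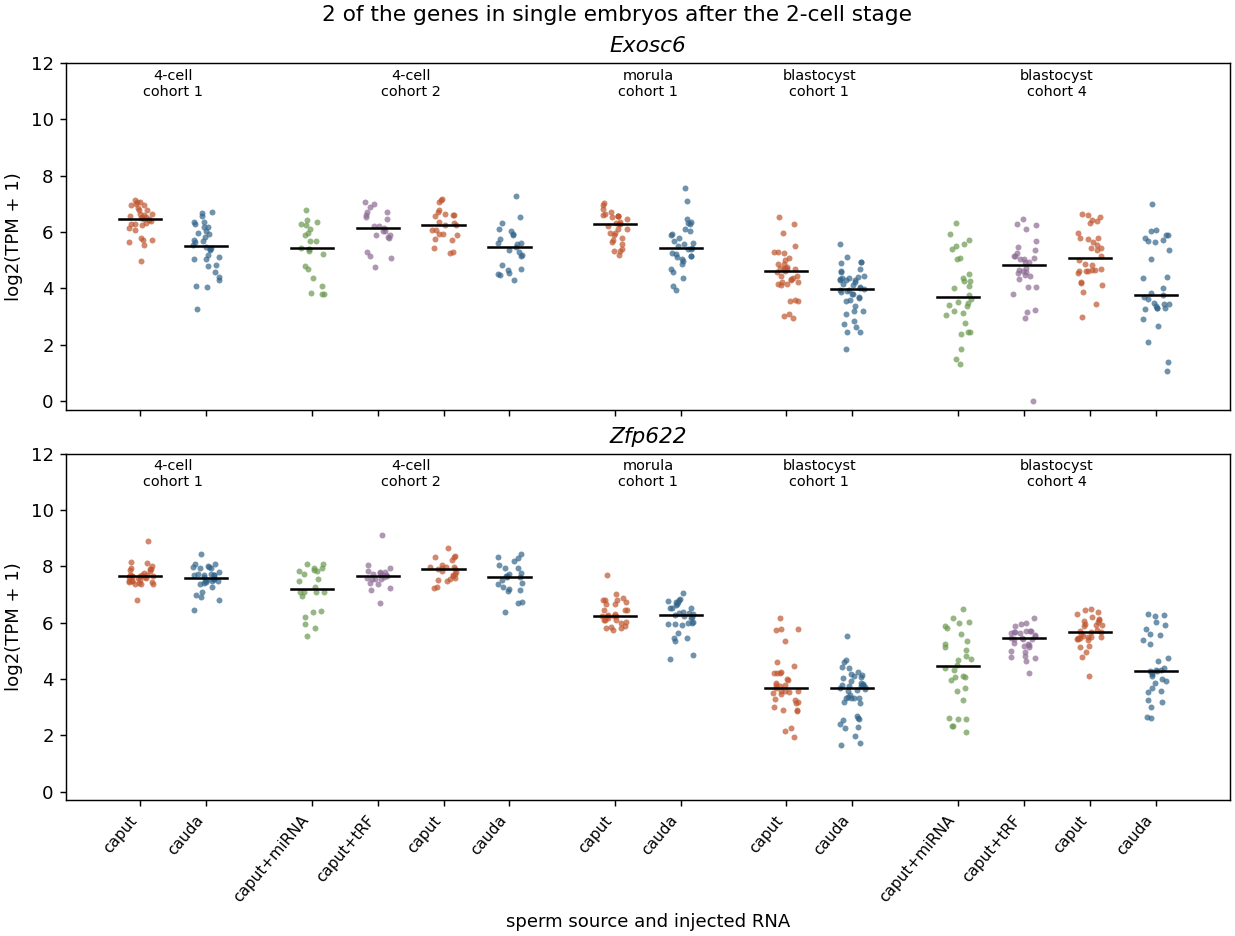
log2(TPM + 1) of Exosc6 and Zfp622 per embryo (points, group medians as lines) in 5 cohorts, with EpiM miRNA and EpiM tRF left of caput and caput left of cauda. These are the cohorts in which Exosc6 passed the test of caput minus cauda. The 8-cell cohort and blastocyst cohort 2, in which it did not pass, are not shown. Both genes lie lower with EpiM miRNA than in caput embryos in 4-cell cohort 2 and blastocyst cohort 4, with fitted changes of -0.93 and -1.37 for Exosc6 and -0.74 and -1.22 for Zfp622 on the log2 scale.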

How the data were processed

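The authors deposited 12 tables of TPM, 1 column per embryo; per the submitters' processing notes, reads were handled with Bowtie on mm10, with no version given, and the counting tool is not given in the sources used here. TPM hold no read numbers, so how deeply any library was sequenced is unknown. Libraries had 4864 to 12629 genes at 1 TPM or more (median 10627). Within a table the most similar pair of libraries correlated at 0.957 to 0.988, and no 2 were identical. The 27 symbols that a spreadsheet had turned into dates were restored, and 2 columns that match no sample label were not used.

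Values were taken as log2(TPM + 1), a scale that understates changes of low genes. Each comparison was fitted in limma 3.58.1 (R 4.3.3) with intensity trend and robust variances, with the session (the date-like number in the library names) as a term where a table holds more than 1, on all genes that reached 1 TPM in enough embryos, namely a number equal to 50% of the smaller group. Tables with 3 or 4 groups used 1 fit. Genes were called at a Benjamini-Hochberg adjusted p under 0.05 over all genes tested, 2-sided. Tables were normalised separately, so levels across stages are descriptions. The fit was also run on simulated data with independent normal values for each gene, no session effect and shifts in well expressed genes only. That run does not cover session effects or changes in genes near 0. Summaries used Python 3.11.15, numpy 2.4.6 and pandas 2.3.3.

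The members, lists and tests were chosen with earlier results of these data known. Named genes were taken from members with gene names (symbols other than those that start with Gm and a digit or with LOC or end in Rik): the first 15, the limits of the list, up to 5 per functional list, up to 4 called members or the 1 with the smallest p in each comparison, the 3 most abundant per stage, the 5 largest and 5 smallest changes in caput embryos and the 5 highest and lowest stage ratios. Gm11517, Gm2a, the remaining called members and further members of a described role were named after their values were seen. Alternatives were a pseudocount of 0.1, no filter, no session term, centring on the median of the genes tested, embryo numbers as a replicate block, leaving out a session, session means and other rankings. Some members are counted but not reported here by name.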

Additional observations from a re-analysis of the deposited data

Results flagged for a closer look

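Among 92 named members, 6 had 1 cauda embryo at 24 h far below the other 7, by the gap to the next embryo divided by the range of the 8 embryos, past Dixon's limit. For independent normal values the limit is passed in about 1 of 20 cases by an embryo at either end, low or high, or in 4.6 of 92. TPM need not meet this, and genes of the same embryo can vary together, so 4.6 is a rough guide. In embryo 4 this was seen for Folr1 (gap 0.593 of the range; 6.47 TPM, against 33.5 TPM in the next embryo), Tnpo3 (0.611; 0.89 and 13.0 TPM) and Snrnp35 (0.53; 0 and 8.63 TPM). In embryo 6 it was seen for Pgd (0.635; 0.86 and 16.8 TPM) and Fam43b (0.633; 0 and 4.5 TPM), and in embryo 1 for Snrpb (0.544; 4.19 and 20.9 TPM).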

How the results depend on the processing

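All 200 members rose in caput embryos under every alternative run, also with 1 mean per session and group and without each of the 3 sessions. For the 68 members that met the filter through the 28 h embryos a change was a condition of entry, so this count is a description. The choice of members depended on the scale: ranking on log2(TPM + 0.1) kept 127 of the 200, while the other rankings kept 166 (on caput embryos) to 197. Elsewhere counts of called members were small and moved with the settings. With a pseudocount of 0.1, 0 members were called for caput minus cauda in 4-cell cohort 2 (1 in the report), 3 for testis minus cauda in morula cohort 2 (13) and 3 for caput minus cauda in blastocyst cohort 4 (5). Without the filter on low values the first 2 of these gave 0 and 3. Without the session as a term, morula cohort 2 gave 7, and caput minus cauda gave 1 in blastocyst cohort 1 (3), 1 lower in cohort 2 (0) and 2 in cohort 4, while GFP minus cauda in cohort 3 gave 0 (1). After centring, caput minus cauda gave 2 in 4-cell cohort 1 (4), 0 in 4-cell cohort 2, 0 in morula cohort 1 (1), 7 in blastocyst cohort 1 and 3 in cohort 4, tRF minus caput gave 2 in 4-cell cohort 2 (0), morula cohort 2 gave 8 and GFP minus cauda 0. Without cauda embryo 18, morula cohort 2 gave 31. The cause was not tested.

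Counts over all genes moved by over 1.5 times in several comparisons. In morula cohort 2, 186 genes were called, against 57 with a pseudocount of 0.1, 60 without the filter, 109 without the session and 559 without cauda embryo 18. In blastocyst cohort 1, 259 were called, against 140 without the filter, 17 without the session and 559 after centring. Cohort 2 gave 34, 79 without the session and 1 after centring. In cohort 3 GFP minus cauda gave 53, 32 without the filter, 22 without the session and 87 after centring, and EpiM small RNA minus GFP gave 53, 25 with a pseudocount of 0.1 and 33 without the filter. Caput minus cauda in cohort 4 gave 222, and 119 after centring. In 4-cell cohort 2 tRF minus caput gave 1, and 8 after centring, and in cohort 3 testis minus cauda gave 2, and 1 after centring.

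The embryo numbers in the labels are serial, and in no comparison did every same-numbered pair of embryos deviate together beyond a correlation of 0.1. The pairs that did so were 0 of 18 for 28 h minus 18 h in caput embryos. In blastocyst cohort 4 they were 17 of 29 for miRNA minus caput (median correlation 0.181), 15 of 29 for tRF minus caput (0.158) and 13 of 30 for caput minus cauda (0.029). With the number as a replicate block, members called were 0 in morula cohort 2, 0 for caput minus cauda in blastocyst cohort 1, 3 in blastocyst cohort 4 and 1 for tRF minus caput at the 4-cell stage, and calls over all genes were 25, 3, 137 and 2. The block gave 7 calls over all genes in blastocyst cohort 2 and 0 in 4-cell cohort 3. For blastocyst cohort 3 alone, where numbers follow accession order, no paired fit was made. Of the results for single genes that were followed under the alternatives, 635 kept their call and direction, 44 lost the call, 1 gained it and none reversed. These results do not cover every member and setting. Gains among all members show in the counts above, such as 31 called in morula cohort 2 without cauda embryo 18, against 13 with it. TPM tables give no depth, so low genes listed at 0 have no detection limit.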
